A study of Mus musculus with 6 samples.

Results

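The genes described here encode splicing factors and proteins of the spliceosome. They were taken by symbol alone: a probe set belonged if its single gene symbol began with Srsf, Hnrnp, Sf3a, Sf3b, Snrp, Luc7l, U2af, Prpf or Lsm, with a number after Srsf, Sf3a, Sf3b, Prpf and Lsm. The rule found 161 probe sets of 70 genes among the 20380 probe sets of 12393 genes with a single symbol. A probe set is a group of short oligonucleotides that reads 1 stretch of a transcript, and many genes have several. A filter on low signal left 151 member probe sets of 68 genes. The 10 that it removed were those of Lsm14a and Snrpn, which then had none, and 1 probe set each of Prpf4b, Prpf6, Sf3b5, Sf3b6, Snrpb2, Snrpd3, Hnrnpa1 and Hnrnpab. The symbols also bring in a few proteins that are known for other RNA work, such as the decay factor Lsm1 and the histone mRNA factor Lsm10.

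The spliceosome removes introns from pre-mRNA. Small nuclear RNAs, each wrapped by a ring of Sm or LSm proteins, find the ends of the intron and the branch point: the U1 particle binds the 5' splice site, U2AF reads the pyrimidine tract before the 3' splice site, and the SF3A and SF3B proteins of the U2 particle hold the branch point. PRPF proteins build and drive the catalytic particle. SR proteins (Srsf genes) mostly promote the use of nearby exons, hnRNPs often repress it, and Luc7-like proteins act with the U1 particle in choosing 5' splice sites. Transcripts of many SR and hnRNP genes are themselves alternatively spliced, and some of the alternative exons send the transcript to nonsense-mediated decay. Probe sets in different parts of such a gene can read different isoforms. In muscle, switches of splicing accompany the maturation of contractile genes.

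C2C12 is an established mouse myoblast line that fuses into myotubes when serum is withdrawn, and all 6 samples were of this line with no genetic change named in the labels. Cells grew in 20% fetal bovine serum and differentiated in 2% horse serum for 5 days. The palmitate group (3 arrays) then received 500 µM of this saturated fatty acid for 16 h, bound to albumin, and the control group (3 arrays) received 1% bovine serum albumin (BSA). RNA was read on Affymetrix mouse 430A 2.0 arrays. The labels do not say whether replicates were separate cultures of the line, so p-values measure the spread between these arrays, which may be technical. Values are MAS 5 signals on a linear scale, and the number of arrays limits their precision. A log2 fold change is palmitate minus BSA in mean log2 signal ± SE, and a probe set was called higher or lower at a Benjamini-Hochberg adjusted p under 0.05 from limma, adjusted over all 13575 probe sets that passed the filter. Signals of different probe sets are not comparable as levels.

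The cells carried the markers of their label. All 11 myotube markers on the list passed the filter, 0 were called by limma (1, Mef2c, at an unadjusted p under 0.05), and their summed signal was 119403 to 190420 on the BSA arrays and 137379 to 145114 on the palmitate arrays. Of 5 measured markers of dividing cells (Mki67, Top2a, Cdk1, Pcna and Mcm5), 4 fell, and the sum was 36186 to 47874 with BSA and 24648 to 27321 with palmitate. Of 3 measured markers of undifferentiated myoblasts, Myod1 fell, and the sum was 10096 to 11200 with BSA and 5789 to 6620 with palmitate. The part of these cell populations in the results below was not tested, and in bulk RNA fewer cells of a type cannot be told apart from less RNA per cell. None of 19 markers of adipocytes, endothelium, leukocytes, neurons or epithelium passed the filter (0 of 19), and each list's sum was at most 951.7.

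Across the members, 24 of 151 probe sets (15.9%) were higher with palmitate and 5 (3.31%) were lower. Over all 13575 probe sets, 8.63% were called higher and 10.6% lower. In this fit the share called in either direction was the same, 19.2% of the members and 19.2% of all. The members' probe set counts as deposited thus differed from the background in the split between rises and falls. The total shares were not equal under every alternative. With no intensity trend in the fit, 12 of the 151 were higher and 4 lower, against 6.51% and 8.51% of all probe sets. The 24 rises lay in 17 genes and the 5 falls in 4 genes, with 20 genes in all, because Luc7l2 had both. When each gene was represented by its brightest probe set, 8 of 68 genes (11.8%) were higher and 3 (4.41%) lower, against 7.92% and 12.3% of all genes. The median log2 fold change was 0.14 over the member genes and -0.051 over all genes, and 44 of the 68 lay above 0. All 3 palmitate arrays lay above all 3 BSA arrays for 40 of the 151 probe sets and below them for 8, against 17.6% and 19.6% of all probe sets.

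This split rests on how the arrays were scaled. The deposited arrays share 1 average signal, and the 9 hybridisation control probe sets, whose RNA is nominally added in equal amounts, averaged 12.82 ± 0.14 (SD, n = 3, log2 signal) with BSA and 13.15 ± 0.14 with palmitate, a difference of 0.33 (exact permutation test, two-sided, p = 0.1, the smallest that 3 against 3 arrays can give). Scaled to those controls, the median of all probe sets moved from -0.0083 to -0.34. On that scale 7 member probe sets were higher and 11 lower, the median of the member genes was -0.19, and 2.98% of all probe sets were higher and 23.3% lower. A scaling shifts every probe set alike, so the distance between the members and the other genes was the same on both scales. Of the 29 called members, 12 stayed called and 17 did not, and 0 changed sign. The difference between probe sets of 1 gene within an array does not depend on the scaling.

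**Figure D1:**
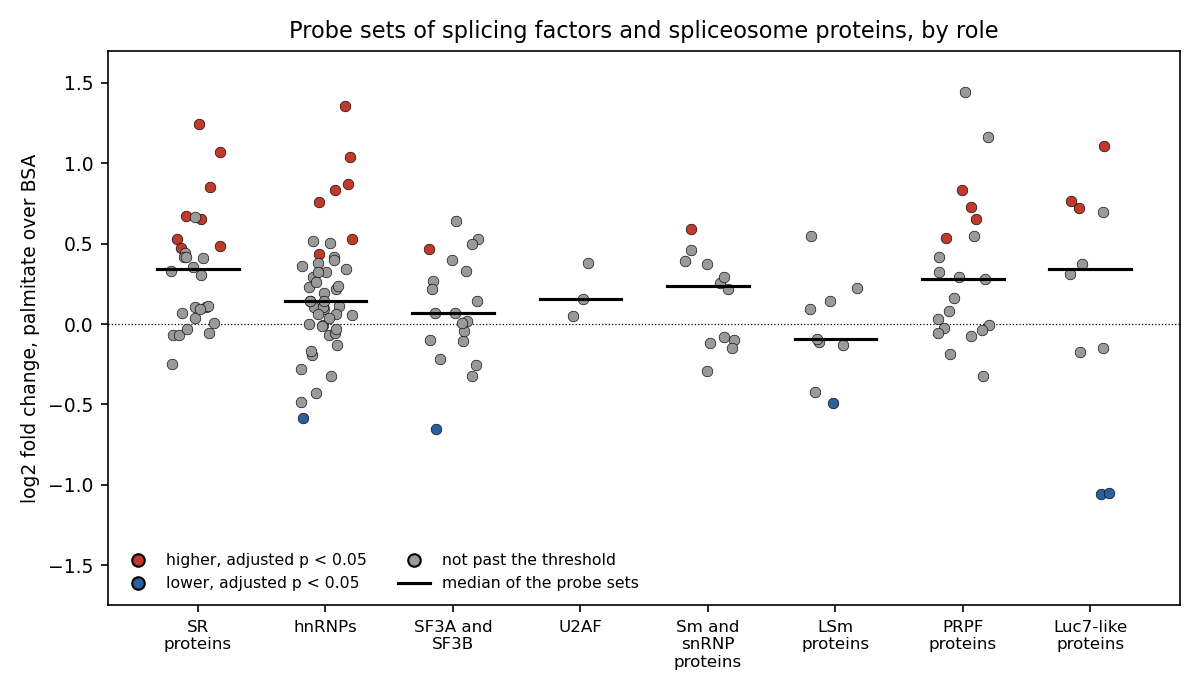
Log2 fold change, palmitate over BSA, of each of the 151 tested member probe sets, grouped by role; red points were called higher, blue points lower, grey points did not pass the threshold, and bars are medians over the probe sets of a role. Called rises number 8 among SR proteins, 7 among hnRNPs, 4 among PRPF proteins and 3 in the Luc7-like group, which also holds the lowest points, near -1.06.

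Luc7l2 was the member whose probe sets moved apart. It encodes a relative of the yeast U1 particle protein Luc7, and it lies on chromosome 6 from 38551334 to 38609953 of GRCm38.p6, with 26 RefSeq transcripts. Its 5 probe sets on the array were designed from 4 source sequence entries, with 1436766_at and 1436767_at from the same entry, so that pair is not independent. RefSeq's table of promoters gives 1 start for it, inside the gene span, on the plus strand. The 250 bases before that start (chr6:38555473-38555722) are shown because the gene carries the main result, with a CCAAT box on the minus strand (read as ATTGG) in capitals.
Luc7l2: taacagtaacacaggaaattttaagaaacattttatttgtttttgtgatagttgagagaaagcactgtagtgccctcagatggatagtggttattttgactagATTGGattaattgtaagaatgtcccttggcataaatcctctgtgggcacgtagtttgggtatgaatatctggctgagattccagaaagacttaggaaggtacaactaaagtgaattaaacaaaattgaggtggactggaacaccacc

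The signal of 1436766_at was 2346, 3252 and 2815 on the BSA arrays and 1699, 1176 and 1197 on the palmitate arrays. All 3 palmitate arrays lay below all 3 BSA arrays, and the log2 fold change was -1.06 ± 0.20 (limma adjusted p = 0.00385). The probe set from the same entry, 1436767_at, read 1389, 1867 and 1511 with BSA and 993, 631.8 and 706.6 with palmitate. It fell by 1.05 ± 0.23 on the log2 scale (adjusted p = 0.00809), again without overlap. A different one, 1427087_at, went the other way, from 715.4, 901 and 743.2 with BSA to 1363, 1455 and 1190 with palmitate. Every palmitate array lay above every BSA array there, and it rose by 0.77 ± 0.21 (adjusted p = 0.0218). That rise missed the threshold without BSA 1, BSA 3, palmitate 1 or palmitate 2, reaching 0.0651, and on the hybridisation control scale (0.43, adjusted p = 0.228).

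The other two probe sets of Luc7l2 did not pass. The brightest, 1423251_at, read 2950, 3903 and 3559 with BSA and 4824, 3443 and 5346 with palmitate. Its groups overlapped through palmitate 2, and the log2 fold change was 0.37 ± 0.19 (adjusted p = 0.203). The signal of 1436165_at was 2323, 2547 and 2696 with BSA and 2768, 2163 and 1946 with palmitate. These groups overlapped too, at -0.15 ± 0.18 (adjusted p = 0.604). A gene-level value taken from the brightest probe set alone would therefore have shown no call for Luc7l2.

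The test of the difference itself compared 2 probe sets of a gene within each array, as log2 signal of the brighter minus that of the dimmer, with limma and adjustment over all 7016 such pairs of 3000 genes. Over all genes 0.171% of pairs were called, 12 pairs of 7 genes. The members had 167 pairs in 38 genes, of which 3 were called, all of Luc7l2. The log2 difference of 1436766_at over 1427087_at was 1.83 with BSA and 0.0063 with palmitate, a change of -1.82 ± 0.26 (adjusted p = 0.0247). For 1436767_at over 1427087_at it went from 1.01 to -0.80, a change of -1.81 ± 0.27 (adjusted p = 0.0250). For 1423251_at over 1436766_at it went from 0.31 to 1.74, a change of 1.43 ± 0.24 (adjusted p = 0.0400). These 3 pairs share probe sets and are not independent evidence. Probe sets called in opposite directions occurred in 2 of 3000 genes (0.0667%), Luc7l2 and Lima1.

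The sizes of the Luc7l2 changes were steadier than the calls. With 1 array left out in turn, the first change ranged from -1.98 to -1.67, the next from -1.99 to -1.62 and the last from 1.22 to 1.54. The first stayed called without BSA 1 (adjusted p = 0.0396), and the 3 pairs were otherwise not called with any array left out, at adjusted p up to 0.153, 0.176 and 0.203, nor with no intensity trend in the fit (0.109, 0.109 and 0.144). Over all genes, 10 of the 7016 pairs were called without BSA 1. Without any other array, or with no intensity trend, 0 of the 7016 were called. The ratio of Gapdh 3' to 5' signal, a mark of RNA integrity, was 0.27 ± 0.073 (SD, n = 3, log2) with BSA and 0.068 ± 0.24 on the palmitate arrays (two-sided exact permutation test, p = 0.2), where palmitate 2 was lowest at -0.20. Without palmitate 2 the first Luc7l2 change was -1.67 (adjusted p = 0.114). Where the probe sets lie in the transcripts was not analysed here.

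**Figure D2:**
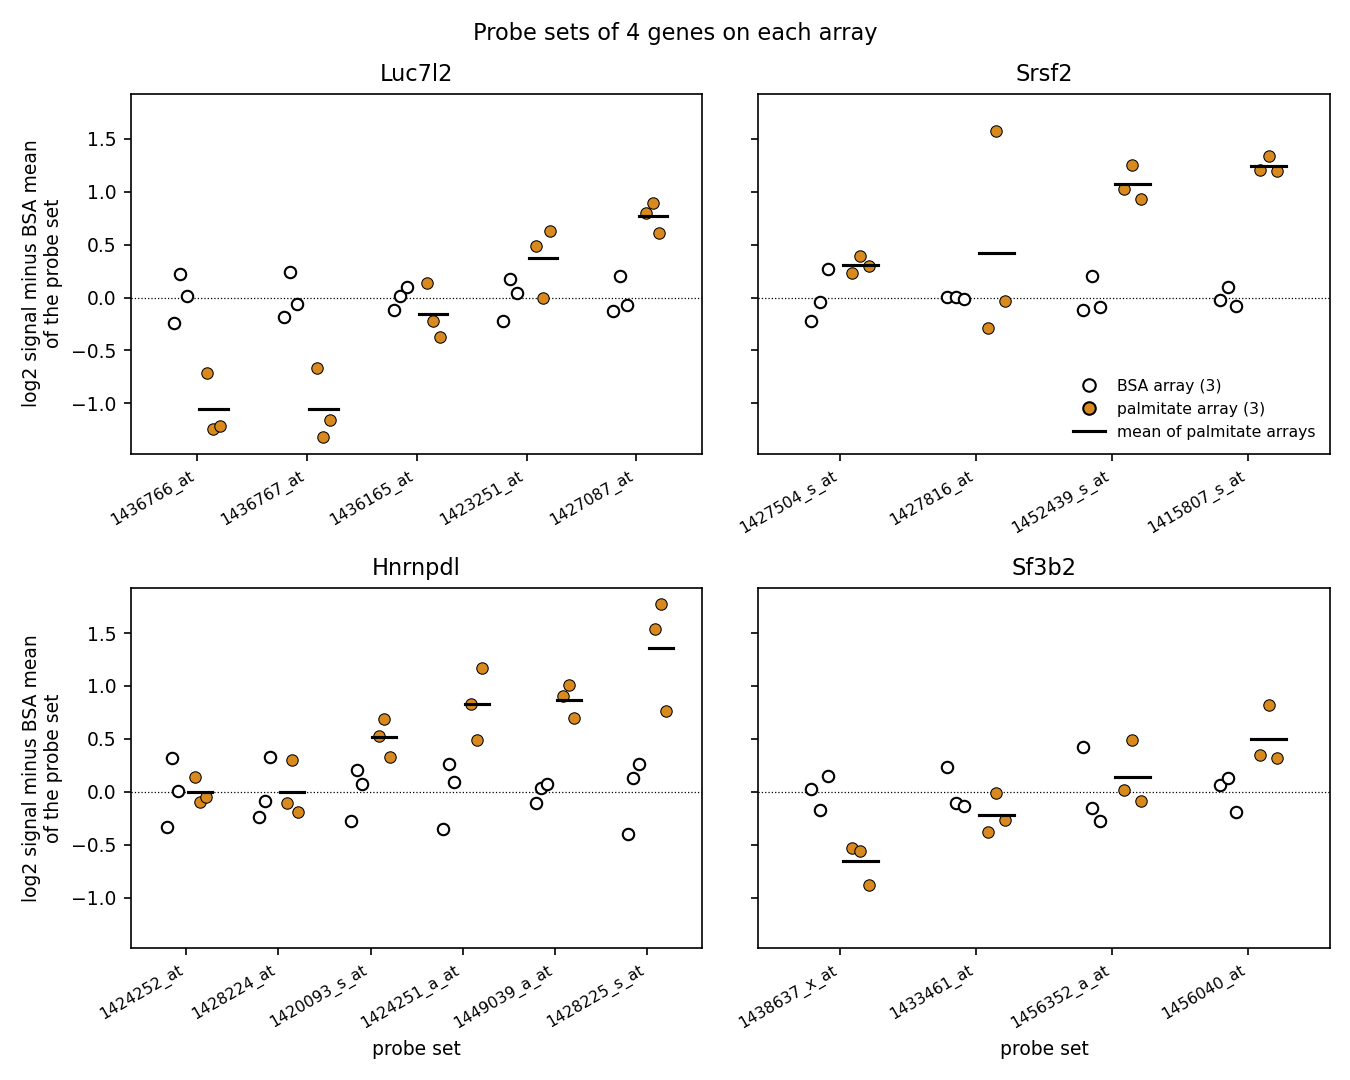
Log2 signal on each array minus the BSA mean of the same probe set, for all tested probe sets of Luc7l2, Srsf2, Hnrnpdl and Sf3b2; open points are the 3 BSA arrays, filled points the 3 palmitate arrays, and bars the palmitate means. In Luc7l2 the palmitate arrays lie below the BSA arrays at 1436766_at and 1436767_at and above them at 1427087_at.

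Luc7l, the founding mammalian relative of Luc7, had 3 probe sets, all with a positive change. The signal of 1452708_a_at was 730.8, 694.3 and 708.3 with BSA and 1390, 2131 and 1208 with palmitate. The groups did not overlap, and the rise was 1.11 ± 0.24 (adjusted p = 0.00708). The brightest, 1428255_at, went from 2462, 2043 and 1999 to 3005, 3826 and 3930, also without overlap, a rise of 0.72 ± 0.17 (adjusted p = 0.0129, lost without BSA 2 or palmitate 3, up to 0.0582, and on the hybridisation control scale, 0.39 at 0.190). Its last probe set, 1431181_a_at, had a value of 0.70 (adjusted p = 0.217). The 2 probe sets of Luc7l3, the remaining relative, were at -0.18 and 0.31 and were not called. Over the 10 probe sets of the 3 Luc7-like genes, 3 were higher and 2 lower, against 8.63% and 10.6% of all probe sets.

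Of 28 SR protein probe sets, 8 (28.6%) were higher and 0 lower by limma, against 8.63% and 10.6% of all probe sets at the same threshold. At an unadjusted p under 0.05, 10 of the 28 were higher and 0 lower. The 8 lay in 6 of the 9 genes. By brightest probe set, 2 of the 9 genes (22.2%) were higher and 0 lower, against 7.92% and 12.3% of all genes. The median over the 9 genes was 0.31 as deposited and -0.027 on the hybridisation control scale. Srsf2, the SR protein also known as SC35, which marks nuclear speckles, had the smallest p. It lies on chromosome 11 (116849897 to 116853675) on the minus strand. The start that RefSeq's table of promoters gives for it, and the 250 bases before that start, lie inside this gene span. Those bases (chr11:116853095-116853344, GRCm38.p6) are shown because Srsf2 had the smallest adjusted p of the members, with an antioxidant response element core (TGACNNNGC) and a CCAAT box in capitals.
Srsf2: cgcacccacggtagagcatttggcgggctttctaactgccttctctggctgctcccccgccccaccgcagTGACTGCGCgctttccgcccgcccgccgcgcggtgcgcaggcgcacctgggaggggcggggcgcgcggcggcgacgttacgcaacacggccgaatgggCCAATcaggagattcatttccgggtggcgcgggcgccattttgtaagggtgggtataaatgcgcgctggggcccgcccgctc

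Signal of Srsf2 at 1415807_s_at was 3240, 3534 and 3124 with BSA and 7612, 8313 and 7547 with palmitate. The lowest palmitate array exceeded the highest BSA array by a wide margin, and the rise was 1.25 ± 0.14 (adjusted p = 0.000104). At 1452439_s_at it went from 2928, 3650 and 2982 to 6463, 7563 and 6044, a rise of 1.07 ± 0.16 (adjusted p = 0.000688). The brightest probe set, 1427504_s_at, read 6447, 7295 and 9092 with BSA and 8823, 9914 and 9240 with palmitate. Its groups overlapped, with a value of 0.31 ± 0.15 (adjusted p = 0.190). The difference between 1427504_s_at and 1415807_s_at changed by -0.94 ± 0.19, which missed the threshold over all pairs (adjusted p = 0.0736). The dim 1427816_at was 338.7, 337.4 and 333.4 with BSA and 276.5, 1000.4 and 328.6 with palmitate, so a single array made its value of 0.42 ± 0.46 (adjusted p = 0.574).

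Of the other SR genes, Srsf3, one of the smallest SR proteins and the brightest of the role on the array, read 7869, 10458 and 10898 with BSA and 14651, 12081 and 13836 with palmitate at 1416150_a_at. The groups did not overlap, and the rise was 0.48 ± 0.16 (adjusted p = 0.0474, lost without BSA 1, BSA 2, palmitate 1 or palmitate 3, up to 0.152). A further Srsf3 probe set, 1416152_a_at, rose by 0.53 ± 0.17 (adjusted p = 0.0422, kept on leaving out palmitate 3 and lost without each other array, up to 0.140). The other Srsf3 probe sets were not called, and the mean over all tested Srsf3 probe sets was 0.40 (limma adjusted p = 0.167). Srsf5 went from 5268, 7097 and 6446 to 7853, 8669 and 9507, without overlap, a rise of 0.48 ± 0.15 (adjusted p = 0.0491) that was lost without any 1 array (up to 0.160). Srsf10, which represses splicing when dephosphorylated, rose at 1418527_a_at by 0.85 ± 0.22 (adjusted p = 0.0194, lost without BSA 1, BSA 2 or palmitate 1, up to 0.0779). Srsf11 rose at 1427269_at by 0.67 ± 0.20 (adjusted p = 0.0366, lost without BSA 1, BSA 3, palmitate 1 or palmitate 3, up to 0.118). The brightest probe sets of Srsf10 (1423982_at, 0.44, adjusted p = 0.153) and Srsf11 (1452371_at, 0.33, adjusted p = 0.177) were not called. Srsf1, the SR protein also called ASF/SF2, rose at 1452430_s_at by 0.66 ± 0.17 (adjusted p = 0.0200, lost without palmitate 1, at 0.0682). Its 5 other probe sets lay between -0.25 and 0.11 and were not called. The rises of Srsf1, Srsf3, Srsf5, Srsf10 and Srsf11 all missed the threshold on the hybridisation control scale, while those of Srsf2 passed there at 0.91 and 0.74.

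Among hnRNPs, 7 of 48 probe sets (14.6%) were higher and 1 (2.08%) lower, against 8.63% and 10.6% of all probe sets. The median over the 18 genes was 0.13 as deposited and -0.21 on the hybridisation control scale. Hnrnpa1, which binds exonic and intronic silencers, had both of its tested probe sets higher. It lies on chromosome 15 (103239943 to 103246698) on the plus strand. The start from the same table of promoters, and the 250 bases before it, also lie inside the gene span. Those bases (chr15:103240147-103240396, GRCm38.p6, RefSeq) are shown because both tested probe sets of Hnrnpa1 rose, with an AP-1 match (TGANTCA) and 4 CCAAT boxes in capitals.
Hnrnpa1: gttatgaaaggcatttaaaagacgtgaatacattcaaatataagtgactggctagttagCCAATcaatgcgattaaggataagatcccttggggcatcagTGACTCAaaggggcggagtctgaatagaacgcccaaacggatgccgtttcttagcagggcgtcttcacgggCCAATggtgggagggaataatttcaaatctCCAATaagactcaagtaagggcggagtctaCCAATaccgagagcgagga

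At 1436549_a_at Hnrnpa1 signal was 3041, 4435 and 3989 with BSA and 7944, 6799 and 8632 with palmitate. The groups did not overlap, and the rise was 1.04 ± 0.17 (adjusted p = 0.00145). At 1455305_x_at it went from 3838, 5560 and 4364 to 6140, 8614 and 8500, a rise of 0.76 ± 0.18 (adjusted p = 0.0138, lost without palmitate 3, at 0.0562, and on the hybridisation control scale, 0.42 at 0.107). Hnrnpa1 has many processed copies in mammalian genomes, so reads of near-identical transcripts cannot be told apart on this probe set, whose _x_at suffix marks probes shared with other sequences. Hnrnpdl, a relative of hnRNP D that binds AU-rich RNA, was the member gene with the largest rise by brightest probe set. At 1424251_a_at it read 10662, 16293 and 14477 with BSA and 24242, 19058 and 30635 with palmitate. These groups did not overlap, although the palmitate arrays spread widely, and the rise was 0.83 ± 0.19 (adjusted p = 0.0109).

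A further 2 probe sets of Hnrnpdl rose. At 1449039_a_at the signal went from 4063, 4498 and 4617 to 8188, 8817 and 7105, a rise of 0.87 ± 0.15 (adjusted p = 0.00149). At 1428225_s_at it went from 1064, 1543 and 1691 to 4068, 4802 and 2393, a rise of 1.36 ± 0.26 (adjusted p = 0.00380). Neither pair of groups overlapped. At 1420093_s_at every palmitate array also lay above every BSA array, at 0.52, which missed the threshold (adjusted p = 0.060). The remaining probe sets, 1424252_at and 1428224_at, were at -0.0040 and 0.0016 (adjusted p = 0.993 and 0.998). The difference between 1424252_at and 1428225_s_at changed by -1.36 ± 0.27, which missed the threshold over all pairs (adjusted p = 0.0736).

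Hnrnpul1, an hnRNP U-like protein also known in the DNA damage response, was the hnRNP that fell. Its signal was 4448, 5319 and 5050 with BSA and 3413, 3092 and 3353 with palmitate. The groups did not overlap, and it fell by 0.59 ± 0.15 (adjusted p = 0.0166, lost without BSA 2 or BSA 3, up to 0.0834). Hnrnpab rose at 1453849_s_at by 0.53 ± 0.14 (adjusted p = 0.0171, lost without BSA 2 or BSA 3, up to 0.0835), with its other tested probe sets between -0.19 and 0.11. Hnrnpf, which binds runs of G, rose at 1423382_a_at by 0.43 ± 0.13 (adjusted p = 0.0350, kept without BSA 1 and lost without each other array, up to 0.109). Neither rise passed on the hybridisation control scale, and the brightest Hnrnpf probe set, 1437099_x_at, was not called as deposited (0.23, adjusted p = 0.339). The brightest hnRNP on the array, Hnrnpk, a poly(C)-binding protein, was at 19549 ± 4084 (SD, n = 3) with BSA and 22418 ± 2271 with palmitate. Those groups overlapped, and the difference of 0.22 did not pass (adjusted p = 0.397) and turned to -0.12 on the hybridisation control scale.

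Probe sets of the proteins that recognise the branch point and the 3' splice site mostly did not pass, as was so over all probe sets, of which 19.2% were called. Of 20 probe sets of 9 SF3A and SF3B genes, 1 was higher and 1 lower, 5% each, against 8.63% and 10.6% of all probe sets. The gene median was 0.070 as deposited and -0.26 on the hybridisation control scale. Sf3b2, an SF3B subunit near the branch point, fell at its brightest probe set, 1438637_x_at, from 6533, 5682 and 7099 to 4446, 4346 and 3493. The groups did not overlap, and the fall was -0.66 ± 0.16 (adjusted p = 0.0132, lost without BSA 3 or palmitate 3, up to 0.0592). Another of its probe sets, 1456040_at, read 1641, 1723 and 1373 with BSA and 2006, 2777 and 1960 with palmitate, higher on every palmitate array, at 0.50 ± 0.20 (adjusted p = 0.097). The difference between those 2 changed by -1.15 ± 0.24 and missed the threshold over all pairs (adjusted p = 0.0950). Of the Sf3b2 probe sets only 1438637_x_at was called, and its suffix marks probes shared with other sequences. The mean over all tested Sf3b2 probe sets was -0.059 (limma adjusted p = 0.826). Sf3b4, an SF3B subunit with RNA recognition motifs, went from 5878, 6201 and 5157 to 7492, 7770 and 8487, without overlap. It rose by 0.46 ± 0.14 (adjusted p = 0.0364, kept without BSA 1 and lost without each other array, up to 0.131), and not on the hybridisation control scale. Sf3b1, the large SF3B subunit that clamps the branch point, was at -0.11 ± 0.14 with overlapping groups (adjusted p = 0.648). None of the 3 U2AF probe sets was called by limma (0 of 3, and 0 at an unadjusted p under 0.05), and U2af2, the subunit that binds the pyrimidine tract, was at 0.16 ± 0.18 (adjusted p = 0.602) as deposited and -0.18 on the hybridisation control scale.

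Of 12 probe sets of 7 Sm and other Snrp genes, 1 (8.33%) was higher and 0 lower, near the 8.63% of all probe sets called higher and against 10.6% lower. The gene median was -0.078 (-0.41 on the hybridisation control scale). The called probe set was 1417353_x_at of Snrpa1, the A' protein of the U2 particle. It rose by 0.59 ± 0.17 (adjusted p = 0.0316), a call lost without any 1 array (up to 0.103). The brightest of Snrpa1, 1417351_a_at, was not called (0.46, adjusted p = 0.160). Snrpe, a member of the Sm ring and the brightest of the group, was at -0.15 ± 0.13 with overlapping groups (adjusted p = 0.469) as deposited and passed as lower on the hybridisation control scale (-0.48, adjusted p = 0.0326). Of 9 LSm probe sets, 1 per gene, 0 were higher and 1 (11.1%) was lower, against 8.63% and 10.6% of all probe sets. Their median was -0.093 (-0.43 on the hybridisation control scale). Lsm8, the subunit that makes the LSm ring specific to U6 RNA in the nucleus, read 3549, 3984 and 4282 with BSA and 2966, 2690 and 2737 with palmitate. These groups did not overlap, and the fall was -0.49 ± 0.15 (adjusted p = 0.0417, kept without BSA 1 and lost without each other array, up to 0.147). Lsm3, which belongs to both the nuclear and the cytoplasmic ring, also lay lower on every palmitate array, at -0.42 ± 0.15, and missed the threshold (adjusted p = 0.0686) as deposited, while on the hybridisation control scale it passed (-0.75, adjusted p = 0.00987).

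PRPF proteins had 4 of 21 probe sets (19.0%) higher and 0 lower by limma (7 and 0 at an unadjusted p under 0.05), against 8.63% and 10.6% of all probe sets. The median over the 10 genes was 0.23 as deposited and -0.10 on the hybridisation control scale. Prpf39, related to a yeast U1 particle protein, was at 1140, 1132 and 1172 with BSA and 2068, 1507 and 2195 with palmitate at its brightest probe set, 1428171_at. The groups did not overlap, and the rise was 0.73 ± 0.20 (adjusted p = 0.0227, lost without BSA 2, BSA 3, palmitate 1 or palmitate 3, up to 0.0941). Its 1452688_at had the largest change of any member probe set, 1.45 ± 0.48, but with too wide an error to pass (adjusted p = 0.055), and 1428172_at was at -0.0063. Prpf38b, related to a yeast factor that activates the spliceosome, rose at both of its probe sets. The brighter, 1428674_at, went from 2256, 2189 and 2208 to 3400, 2984 and 3282, without overlap, a rise of 0.54 ± 0.15 (adjusted p = 0.0288), and 1452869_at rose by 0.65 ± 0.18 (adjusted p = 0.0264). Both calls were lost without BSA 2, BSA 3, palmitate 1 or palmitate 3 (up to 0.101 and 0.117). Prpf4b, a kinase of the spliceosome, rose at 1425497_a_at by 0.83 ± 0.24 (adjusted p = 0.0312, lost without BSA 1, BSA 3, palmitate 2 or palmitate 3, up to 0.106). Its brightest probe set, 1425498_at, was at -0.024 (adjusted p = 0.963). The remaining tested ones, at 0.083, 0.55 and 0.28, were not called either. Prpf8, the protein around the catalytic centre and the brightest of the role, was at 4992 ± 909 (SD, n = 3) with BSA and 3961 ± 411 with palmitate, which overlapped (-0.32, adjusted p = 0.211). On the hybridisation control scale the PRPF rises missed the threshold and Prpf8 passed as lower (-0.66, adjusted p = 0.0244).

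**Figure D3:**
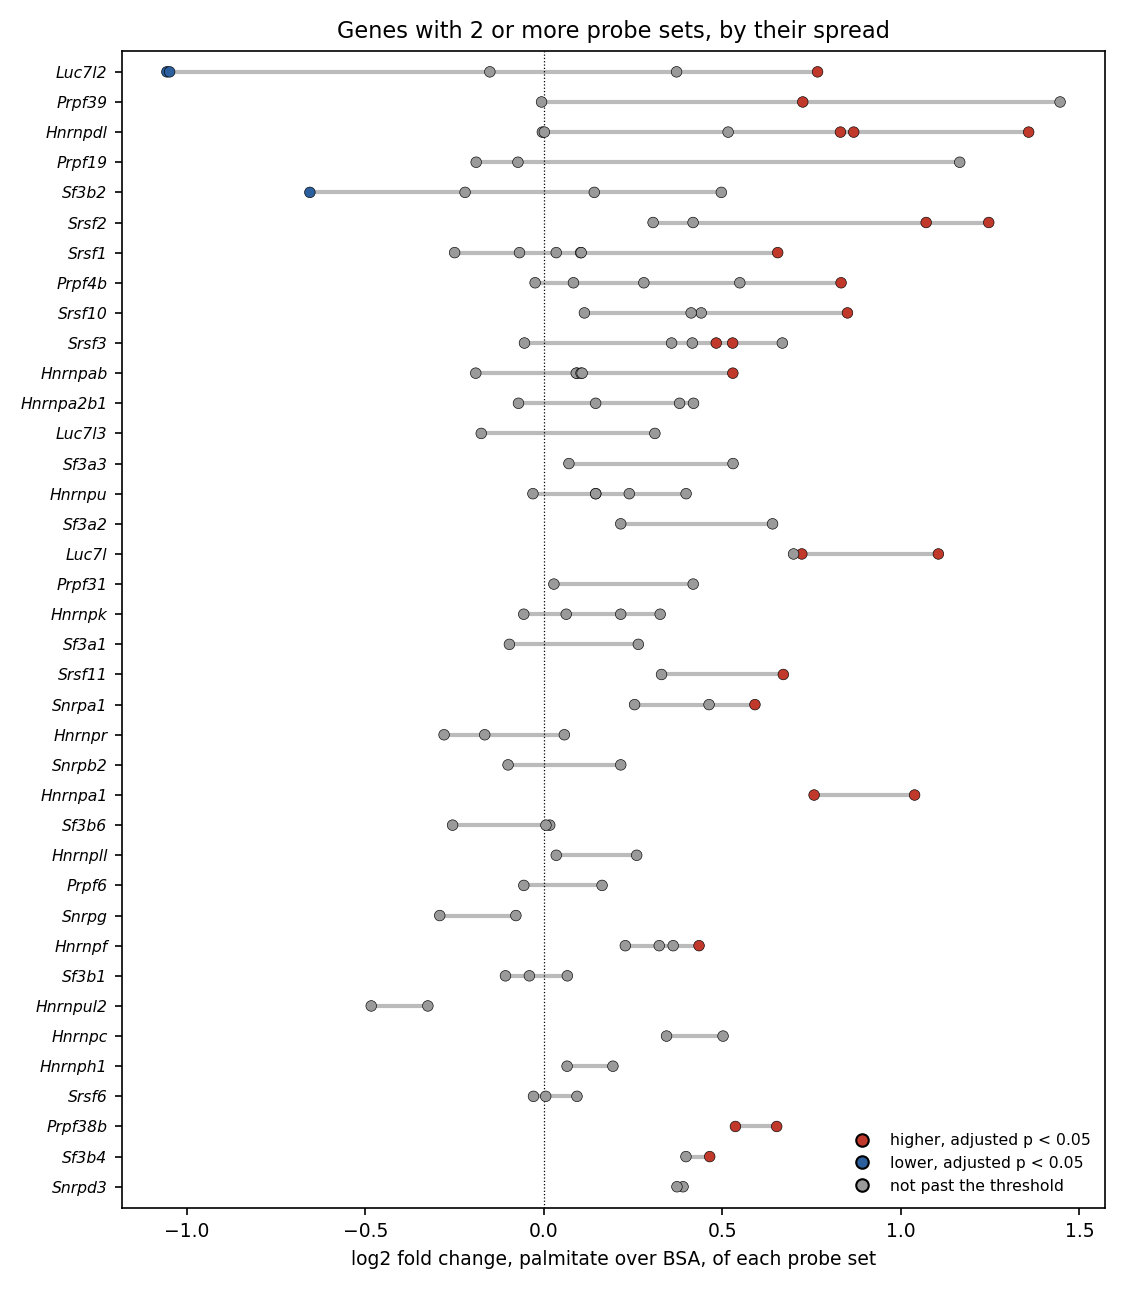
Log2 fold change of every tested probe set in the 38 member genes with at least 2, ordered from the widest to the narrowest spread within a gene; red points were called higher, blue lower and grey did not pass. Luc7l2 has the widest spread, 1.82, with calls on both sides of 0, and Snrpd3 the narrowest, 0.017.

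Calls often differed between the probe sets of 1 gene. Of the 38 genes with at least 2 tested probe sets, 17 (44.7%) had any call, against 33.2% of all 3000 such genes. In 15 of the 38 (39.5%) some probe sets were called and some were not, against 24.7% of the 3000. The mean number of probe sets was 3.18 a gene in the members and 2.53 in all 3000, and its part in these shares was not tested. Hnrnpa1 and Prpf38b had every tested probe set called. By the test of the difference itself, 38 of the 167 member pairs (22.8%) had an unadjusted p under 0.05, against 13.1% of all pairs, while the median size of the change between probe sets was 0.28 in both. Pairs of 1 gene share probe sets and are not independent. The 167 pairs came from 38 genes and all 7016 from 3000 genes, and the part of this in the 2 shares was not tested. After Luc7l2, the widest spreads within a gene were 1.45 in Prpf39, 1.36 in Hnrnpdl, 1.35 in Prpf19 and 1.15 in Sf3b2. No pair of these 4 genes passed the threshold. Prpf19, a ubiquitin ligase of the active spliceosome, was at 1.17 ± 0.40 at 1460633_at (adjusted p = 0.061) and at -0.19 and -0.072 at its other probe sets.

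**Figure D4:**
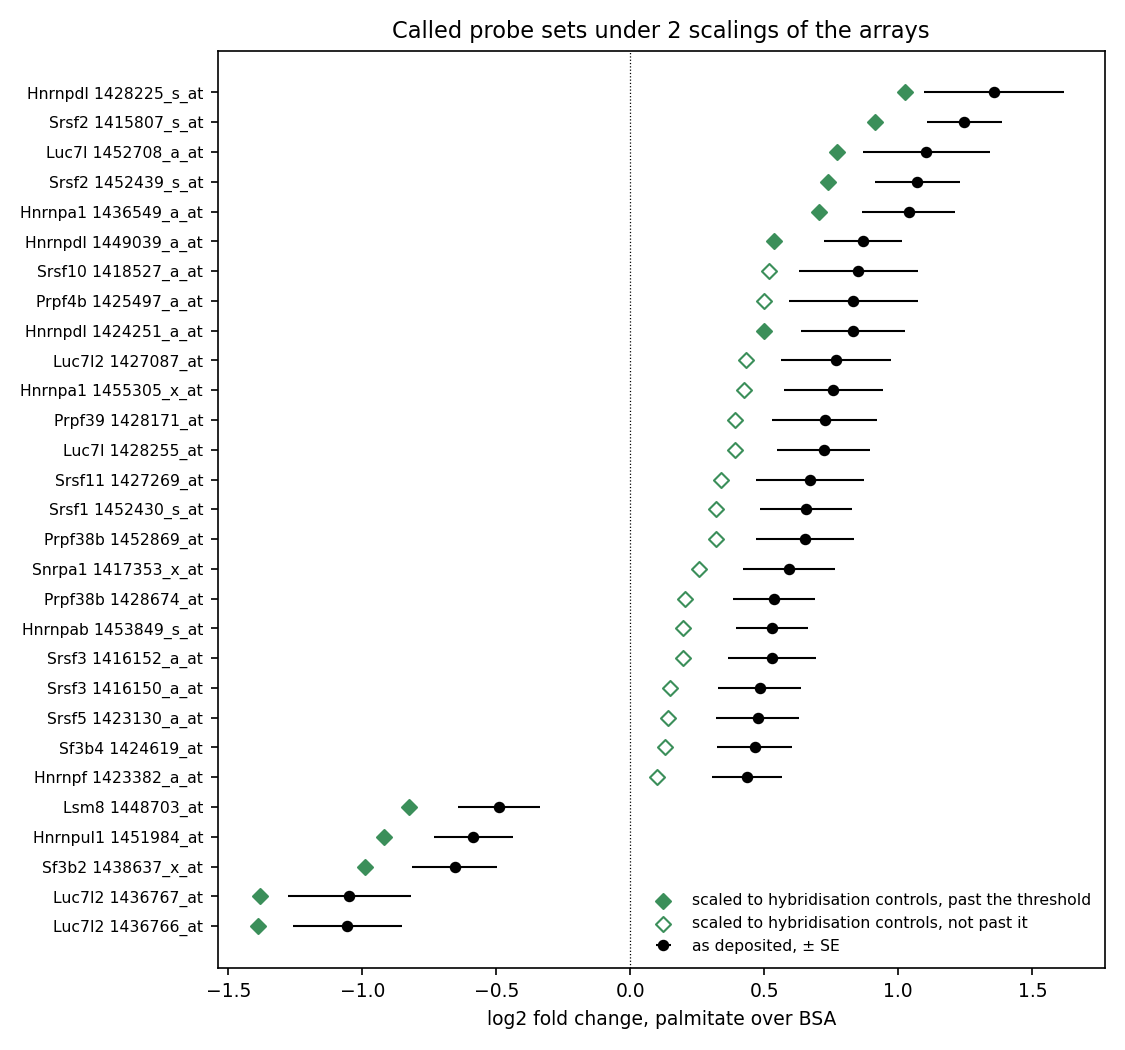
Log2 fold change of the 29 called member probe sets as deposited (black points, with SE as bars) and after scaling the arrays to the hybridisation controls (diamonds, filled where still past the threshold). All points move down by 0.33, so that 7 rises and all 5 falls remain called and 17 rises do not.

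The other genes of the splicing pathway were taken from lists of known members. Of 40 measured splicing regulators outside the symbol rule, 4 were higher and 4 lower by brightest probe set. That is 10% each, near the 7.92% and 12.3% of all genes, and the median was 0.095. Ptbp1, which represses exons through pyrimidine tracts, rose by 1.18 ± 0.16 (adjusted p = 0.000463), and Mbnl1, which promotes the splicing pattern of mature muscle, fell by 0.99 ± 0.18 (adjusted p = 0.00215). Both calls held under every alternative run. The nucleolar protein gene Ncl rose by 0.86 (adjusted p = 0.00145), as did Tardbp, which binds GU-rich RNA, by 0.87 (adjusted p = 0.00212), while Rnps1 rose by 0.45 (adjusted p = 0.0316). Nono fell by 0.94 (adjusted p = 0.0304), Cirbp by 0.73 (adjusted p = 0.0283) and Celf2 by 0.57 (adjusted p = 0.0391). The call of Nono was lost without BSA 2, BSA 3, palmitate 1 or palmitate 2 (up to 0.120) and that of Cirbp without BSA 1, BSA 3, palmitate 1 or palmitate 3 (up to 0.103). Rnps1 stayed called without BSA 3 and was lost without each other array (up to 0.103), and Celf2 stayed called without BSA 1 and was lost without each other array (up to 0.140). On the hybridisation control scale the rises of Tardbp and Rnps1 did not pass. Among the regulators that did not pass at their brightest probe set were Tra2a at 0.35, Tra2b at 0.39, Rbm39 at 0.43, Khdrbs1 at -0.25 and Son at -0.29 (adjusted p = 0.251, 0.0694, 0.156, 0.373 and 0.183). At those probe sets Khdrbs1 and Son passed as lower on the hybridisation control scale (-0.58 and -0.62, adjusted p = 0.0455 and 0.0206). As deposited, another probe set was called higher in Tra2b (1419543_a_at, 0.76, adjusted p = 0.00757) and in Son (1420951_a_at, 0.83, adjusted p = 0.0380). Further regulators not called at their brightest probe set had a dimmer one called. It was higher in Elavl1 (0.97, adjusted p = 0.00183), Tial1 (0.71, 0.0139), Acin1 (0.68, 0.0304) and Sf1 (0.80, 0.0421). In Rbm5 it was lower (1456262_at, -0.98, adjusted p = 0.0211).

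Sfpq, the paraspeckle partner of Nono, was the listed gene outside the symbol rule whose probe sets moved apart. Its 1436898_at fell by 1.10 ± 0.17 (adjusted p = 0.000904), while its 4 other probe sets, at 0.077, 0.41, 0.50 and -0.68, were not called. The difference of 1438459_x_at over 1436898_at changed by 1.60 ± 0.20 (adjusted p = 0.0204), and 2 further pairs with 1436898_at were called, at 1.51 (adjusted p = 0.0204) and 1.18 (adjusted p = 0.0436). Those were the 3 called pairs of 232 in the listed genes, of which 49 had an unadjusted p under 0.05. Over all 7016 pairs, 0.171% were called and 13.1% had an unadjusted p under 0.05. With 1 array left out, the change of the first Sfpq pair ranged from 1.51 to 1.69, and it and the next stayed called without BSA 1 (adjusted p = 0.0380 for both) and were lost without each other array (up to 0.146). The last pair was not called with any array left out (up to 0.203), and none of the 3 with no intensity trend in the fit (0.109, 0.109 and 0.144). With no trend, and without any array other than BSA 1, 0 of the 7016 pairs of all genes were called.

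Of 11 kinases and phosphatases of SR proteins, a list that shares Prpf4b with the members, 1 was higher and 1 lower by brightest probe set. That is 9.09% each, near the 7.92% and 12.3% of all genes, and the median was 0.080. Pim1 rose by 0.89 (adjusted p = 0.0110) and Srpk3, the SR kinase of muscle, fell by 0.77 (adjusted p = 0.0431, lost without BSA 1, BSA 2, palmitate 1 or palmitate 3, up to 0.142). At their brightest probe sets the SR kinases Clk1 and Clk4 were at 0.48 and 0.49 (adjusted p = 0.0511 and 0.118). Srpk1 was at 0.0026 (adjusted p = 0.995) as deposited and -0.33 on the hybridisation control scale. A dimmer probe set was called higher in Clk4 (1427663_a_at, 0.98, adjusted p = 0.0317), Dyrk1a (1426226_at, 0.87, adjusted p = 0.0491) and Prpf4b (1425497_a_at, 0.83, adjusted p = 0.0312). By brightest probe set, 7 of 45 other spliceosome proteins (15.6%) were higher and 0 lower by limma, against 7.92% and 12.3% of all genes, with a median of 0.12. They were Wdr77, of the complex that methylates Sm proteins (0.85, adjusted p = 0.00124), Snrnp48 of the minor spliceosome (0.95, adjusted p = 0.00274), Cwc27 (0.87, adjusted p = 0.00908), Smndc1, Cwc22, Bud31 and Smn1, which assembles Sm rings. The call of Cwc22 was lost without BSA 2, BSA 3, palmitate 1 or palmitate 3 (up to 0.115) and that of Smn1 without BSA 2, BSA 3, palmitate 2 or palmitate 3 (up to 0.162), while Bud31 stayed called without BSA 1 and was lost without each other array (up to 0.142). On the hybridisation control scale Snrnp48 passed and the other 6 did not, nor did Pim1. Of 5 measured genes of the exon junction complex and nonsense-mediated decay, 1 (20%) was higher and 0 lower, against 7.92% and 12.3% of all genes. Smg8 rose by 0.72 (adjusted p = 0.0433), a call lost without any 1 array (up to 0.143), and Smg5 and Casc3 were at 0.48 and 0.29 (adjusted p = 0.170 and 0.291).

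Promoter sequences were found for 60 of the 70 member genes in RefSeq's table, as 82 windows from 250 bases before to 50 after a start. The motifs below were searched on both strands. An ETS site (CCGGAAG) was in 24 member windows (29.3%), against 8.86% of all 32851 windows and 18.4% of the 8369 windows of tested genes. A heat shock element (GAA, TTC and GAA, each 2 bases apart) was in 4 (4.88%), against 0.603% and 0.538%. A CCAAT box was in 39 (47.6%), against 37.4% and 37.2%. The antioxidant response element core (TGACNNNGC) was in 14 (17.1%), against 12.4% and 14.2%, and the AP-1 site (TGANTCA) in 3 (3.66%), against 7.81% and 5.44%. The CCAAT box and AP-1 letters can overlap other motifs, and genes with several starts count more than once. A match describes these letters in these windows and is no measured site. Of the 6 windows of member genes called higher by their brightest probe set, 0 held the heat shock letters, 1 the ETS letters and 3 a CCAAT box.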

How the data were processed

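The C2C12 samples, 3 with palmitate and 3 with BSA, were compared. The authors deposited signal intensities on a linear scale from MAS 5, as the submitters' processing notes name it. The 2% trimmed mean was 1500.5 to 1500.56 on every array, so the arrays had been scaled. No detection call or scan date was used. Of 22690 probe sets 64 were controls. Symbols came from the platform annotation, checked against RefSeq (GRCm38.p6).

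Log2 signals, without an offset, entered the fits where a probe set's mean exceeded the 40th percentile (a signal of 267.1), which kept 13575 probe sets, 12522 of them with 1 symbol, of 7931 genes. Groups were compared with limma 3.58.1 in R 4.3.3 (lmFit, eBayes with an intensity trend, 4 residual plus 7.98 prior degrees of freedom, two-sided, Benjamini-Hochberg). Differences between probe sets of a gene were fitted the same way over 7016 pairs, with the dimmer mean as trend. The median SE was 0.22 per probe set and 0.31 per pair. A gene's brightest probe set represented it. The scripts were tested on simulated data.

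Members and lists were chosen with earlier results of these data known. Genes to be named were up to 12 rises and 12 falls by brightest probe set, genes with called pairs, the brightest gene of each role, up to 3 genes of each list and a few set regulators. Srsf1, Srsf2, Srsf10, Srsf11, Hnrnpab, Hnrnpf, Snrpa1, Snrpd3, Prpf4b, Prpf19, Luc7l3, Sfpq, Rnps1, Nono, Cirbp, Celf2, Smndc1, Cwc22, Bud31, Smn1, Elavl1, Tial1, Acin1, Sf1 and Rbm5 were added after their values were seen. Alternatives were other scalings, filters, an offset of 100, no trend, a replicate block, restricted pairs and leaving out each array. Scaling to the 9 older hybridisation controls was added after seeing the data.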

Additional observations from a re-analysis of the deposited data

How the results depend on the processing

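Of the 29 called member probe sets, 8 stayed called under every alternative run: 2 of Srsf2, 2 of Hnrnpdl (1428225_s_at and 1449039_a_at), 1 each of Hnrnpa1 and Luc7l, and 2 of Luc7l2. None changed sign (0 of 29). Rises numbered 24 as deposited, 7 after scaling to the hybridisation controls, 7 after scaling to the older hybridisation controls (chosen after seeing the data), 12 with no intensity trend, and 12 to 17 with 1 array left out. Falls numbered 5 as deposited, 11 and 8 on the same control scales, and 2 to 5 with 1 array left out. Each count is of 151 member probe sets. Of all probe sets, 8.63% were higher as deposited, 2.98% and 4.02% on the control scales and 6.51% with no trend. With 1 array left out 5.50% to 7.99% were higher. The share of all that were lower was 10.6% as deposited, 23.3% and 20.3% on the control scales, and 6.14% to 9.44% with 1 array left out. Genes called higher by their brightest probe set numbered 8 as deposited, 5 with median scaling, 1 and 1 on the control scales, 2 with no trend and 1 to 6 with 1 array left out, and genes called lower 3 as deposited, 8 and 6 on the control scales and 0 to 3 with 1 array left out. The median over the member genes was 0.14 as deposited, 0.17 with median scaling, 0.18 with 75th percentile scaling, -0.19 and -0.11 on the control scales, and 0.12 to 0.14 with 1 array left out. The called member pairs numbered 3 as deposited, 1 when pairs had to hold the brightest probe set, 0 with no trend (32 at an unadjusted p under 0.05) and 0 to 1 with 1 array left out, where 31 to 41 had an unadjusted p under 0.05. Over all genes the called pairs numbered 12 of 7016 as deposited and 6 of 4591 with the brightest probe set. With no trend 0 were called (922 at an unadjusted p under 0.05). With 1 array left out 0 to 10 were called (684 to 900 at an unadjusted p under 0.05).

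On the hybridisation control scale every log2 fold change moved down by 0.33, so each value printed between 0 and 0.33 turned negative: 53 of the 105 tested member probe sets above 0 did so, of which 0 had been called. Among the genes followed under each alternative these were, on that and the older control scale, U2af2 (-0.18 and -0.10), Hnrnpk (-0.12 and -0.043), Sfpq 1423795_at (-0.26 and -0.18) and Srpk1 (-0.33 and -0.26), and on the first of these Casc3 (-0.039). With 1 array left out, Sfpq 1423795_at ranged from -0.081 to 0.28 and Srpk1 from -0.071 to 0.060 (also -0.013 and -0.011). None of these genes was called at that probe set as deposited. Apart from the scalings and the fewer arrays, the cause of these moves was not tested.

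Replicate numbers did not pair the arrays: deviations from the group means correlated at -0.23, -0.13 and 0.0091 for numbers 1, 2 and 3, and no array correlated best with its own number. With the replicate number as a block, 14 member probe sets were higher and 3 lower, against 6.30% and 8.24% of all 13575 probe sets. In that fit 4 member genes were higher and 1 lower, and 2 member pairs were called, of 8 called over all genes. Signal over background could not be judged without detection calls, so dim probe sets near the filter are the least certain.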

Other observations

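Calls among the members were also counted by the kind of probe set, a count chosen after seeing the data. The suffix _a_at marks probe sets that read several transcripts of 1 gene, and 10 of 34 such member probe sets were higher and 0 lower, against 10.2% and 9.9% of all _a_at probe sets. They belonged to Srsf3, Srsf5, Srsf10, Hnrnpa1, Hnrnpdl, Hnrnpf, Luc7l and Prpf4b. Of 84 plain _at member probe sets, 7 were higher and 4 lower, against 7.98% and 10.7% of all _at probe sets, and these included the probe sets of Luc7l2 that went opposite ways. Of 17 with _s_at, which read more than 1 gene or transcript, 5 were higher and 0 lower, against 10.1% and 11.7% of all _s_at probe sets, and these included both called probe sets of Srsf2. Of 16 with _x_at, 2 were higher and 1 lower, against 8.28% and 10.3%.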
